A study of Homo sapiens with 24 samples.

Results

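DDIT4, DDIT4L, SESN1, SESN2 and SESN3 encode stress-induced proteins that hold back the growth kinase complex mTORC1. These 5 genes of the 18274 with a probe set of their own were followed through 24 microarrays. They were chosen by name, after DDIT4 had been seen to vary widely between these same arrays, so their levels are given as a description. Each gene had 1 probe set on the array, and none of these probe sets was annotated to another gene.

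The samples were cultures of Huh7.5.1, a line of human hepatoma cells widely used to grow hepatitis C virus, here without virus according to every sample title. Cells received silymarin, a flavonolignan extract of milk thistle seed, or the solvent DMSO alone. There were 4 silymarin and 4 DMSO arrays at 4 h, 3 silymarin and 5 DMSO arrays at 8 h, and 3 silymarin and 5 DMSO arrays at 24 h. All groups share the 1 cell line, and no source used here states the silymarin dose. No label says whether replicates were separate cultures, so p-values cover only the spread among these samples, which may be technical. Levels are log2 RMA signals from Affymetrix Human Gene 1.0 ST arrays, where a step of 1 is a doubling, and the number of arrays limits their precision. Array medians lay between 7.04 and 7.18.

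Markers of the labelled cell type were strong in all arrays. The mean log2 signals of 9 measured hepatocyte and hepatoma genes lay between 11.44 for AHSG and 13.34 for ALB, the albumin gene, and AFP, a fetal liver protein made by many hepatomas, lay between 13.05 and 13.24 in single arrays. For 10 markers of blood, endothelial, stromal and bile duct cells the gene means lay between 4.33 for the leukocyte gene PTPRC and 8.45 for the lysosomal gene CD68.

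mTORC1 promotes protein synthesis and growth when amino acids, energy and insulin signals are sufficient. DDIT4, also called REDD1, acts through the TSC1-TSC2 complex, which switches off RHEB, the small GTPase that activates mTORC1. DDIT4L, or REDD2, is its close relative and is best known from muscle. Sestrins work on the amino acid branch: they bind GATOR2, which frees GATOR1 to switch off the Rag GTPases that bring mTORC1 to the lysosome, and SESN2 is itself a leucine sensor. Sestrins also act with the energy sensor AMPK and in defence against peroxides. DDIT4 is induced by hypoxia, glucocorticoids, DNA damage and endoplasmic reticulum stress, SESN2 by ATF4 and NRF2, and SESN3 by FOXO factors.

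DDIT4 and SESN2 are shown here as sequence because their levels followed each other over the arrays, and DDIT4L because its levels did not follow theirs. Each window runs from 250 bases before to 50 after the annotated transcription start, 5′ to 3′ on the gene's strand, from RefSeq on GRCh38.p14. All 5 genes were found in that table, SESN1 with 3 start sites. Capitals mark matches to any of 5 short motifs, searched on both strands.
DDIT4: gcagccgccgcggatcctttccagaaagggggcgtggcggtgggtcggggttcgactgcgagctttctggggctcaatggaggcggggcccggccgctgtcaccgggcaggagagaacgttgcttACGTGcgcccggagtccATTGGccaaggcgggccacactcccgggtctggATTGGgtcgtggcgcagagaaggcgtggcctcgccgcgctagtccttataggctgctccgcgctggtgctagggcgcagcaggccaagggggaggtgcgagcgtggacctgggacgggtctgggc
SESN2: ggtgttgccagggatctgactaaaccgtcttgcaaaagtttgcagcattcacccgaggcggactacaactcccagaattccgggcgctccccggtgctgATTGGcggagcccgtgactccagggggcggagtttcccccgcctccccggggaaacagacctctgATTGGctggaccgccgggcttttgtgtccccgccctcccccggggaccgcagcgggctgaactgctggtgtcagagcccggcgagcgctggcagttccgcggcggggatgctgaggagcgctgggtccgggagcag
DDIT4L: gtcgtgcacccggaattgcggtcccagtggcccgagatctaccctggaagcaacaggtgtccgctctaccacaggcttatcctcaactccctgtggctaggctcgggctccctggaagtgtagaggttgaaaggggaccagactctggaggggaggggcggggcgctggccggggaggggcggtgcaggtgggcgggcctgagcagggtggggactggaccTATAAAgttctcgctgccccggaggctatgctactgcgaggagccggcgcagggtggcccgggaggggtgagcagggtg

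The DDIT4 window is chr10:72273674-72273973 on the plus strand. It held the hypoxia response core ACGTG 125 bases before the start, a motif present in 21.4% of 35116 promoter windows of the same length. It also held the CCAAT box, as ATTGG on the printed strand, 108 and 75 bases before the start. The SESN2 window, chr1:28259268-28259567 on the plus strand, held the CCAAT box in the same orientation 151 and 86 bases before the start. At least 1 CCAAT box occurred in 34.6% of windows and 2 or more in 10.8%. The motifs share no letters in these windows.

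The DDIT4L window, chr4:100190419-100190718 on the minus strand, held no CCAAT box but a TATA box, TATAAA, 29 bases before the start. TATAAA occurred at any position and on either strand in 11.5% of windows. A CCAAT box lay 90 and 75 bases before the start in the second and the third SESN1 window, and the SESN3 window held none of the 5 motifs. The ATF4 and C/EBP composite element, searched as TGATGNAA and present in 3.62% of windows, and the FOXO element GTAAACA, present in 3.42%, matched no window of these genes. The G and C content was 69.7% for DDIT4, 67% for SESN2 and DDIT4L and 45% for SESN3, against a median of 58.7% over all windows. These matches describe the letters in the windows and show no binding.

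DDIT4 had the widest spread within groups of any gene on the array. In silymarin at 4 h the 4 arrays read 10.34, 7.60, 8.05 and 7.69, and the 4 DMSO arrays read 9.69, 7.72, 7.64 and 10.01. In silymarin at 8 h the 3 arrays read 10.14, 7.74 and 10.05, and the 5 DMSO arrays read 9.67, 7.86, 7.50, 10.28 and 10.11. In silymarin at 24 h the 3 arrays read 10.16, 8.15 and 8.35, and the 5 DMSO arrays read 8.00, 8.17, 10.30, 7.52 and 8.28. Every labelled group held at least 1 array at or above 9.67 and at least 1 at or below 8.35, and silymarin and DMSO overlapped at each time. A level is a mean over a whole culture, so fewer cells with the transcript and less of it per cell cannot be told apart.

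Sorted by DDIT4, the 24 arrays fell on either side of an empty stretch of 1.32 on the log2 scale, or 2.49-fold, between 8.35 and 9.67. This stretch was 46.4% of the whole range, which ran from 7.50 to 10.34 and spanned 7.15-fold. There were 10 arrays above it and 14 below. Those above were 1 of 4 silymarin and 2 of 4 DMSO arrays at 4 h, 2 of 3 silymarin and 3 of 5 DMSO arrays at 8 h, and 1 of 3 silymarin and 1 of 5 DMSO arrays at 24 h. In all, 4 of 10 silymarin and 6 of 14 DMSO arrays lay above the stretch, so both labels occurred on both sides. By replicate number, replicate 1 lay above the stretch in 5 of 6 groups, replicate 2 in 0 of 6, replicate 3 in 2 of 6, replicate 4 in 2 of 4 and replicate 5 in 1 of 2. What the numbers share between groups is not stated in the labels. The SD of DDIT4 around its group means was 1.23, the highest of 18274 genes, whose median was 0.12. Its range was the ninth widest.

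SESN2 showed the same picture at a smaller scale. In silymarin at 4 h it read 9.75, 8.53, 8.51 and 8.55, and in DMSO at 4 h it read 9.22, 8.52, 8.47 and 9.63. In silymarin at 8 h it read 9.80, 8.66 and 9.49, and in DMSO at 8 h it read 9.27, 8.79, 8.42, 9.54 and 9.48. In silymarin at 24 h it read 9.58, 8.65 and 8.72, and in DMSO at 24 h it read 8.62, 8.75, 9.89, 8.43 and 8.79. The arrays with the highest SESN2 in each group were again those with the highest DDIT4, and the treatment groups overlapped at all 3 times.

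SESN2 ranged from 8.42 to 9.89, which is 2.77-fold, and its widest empty stretch ran from 8.79 to 9.22. The 10 arrays above that stretch were the 10 arrays with the highest DDIT4. The same 10 arrays held the highest values of 110 genes other than DDIT4, SESN2 among them. The SD of SESN2 around its group means was 0.55, which ranked 50 of 18274 genes.

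DDIT4L, SESN1 and SESN3 had no such division. Over all arrays DDIT4L lay between 5.60 and 6.16, SESN1 between 8.20 and 8.70 and SESN3 between 9.50 and 10.24. Their ranges were 0.56, 0.49 and 0.75 on the log2 scale, set against a median range of 0.50 over all genes, and the widest empty stretch in each set 1 array apart from the other 23. SESN3 varied most of the 3, with an SD around group means of 0.21 that ranked 1729. DDIT4L and SESN1, both at 0.12, ranked 9353 and 9998, near the middle of all genes. DDIT4L also lay below the level of 6.27 under which genes were left out as dim in an alternative.

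**Figure D1:**
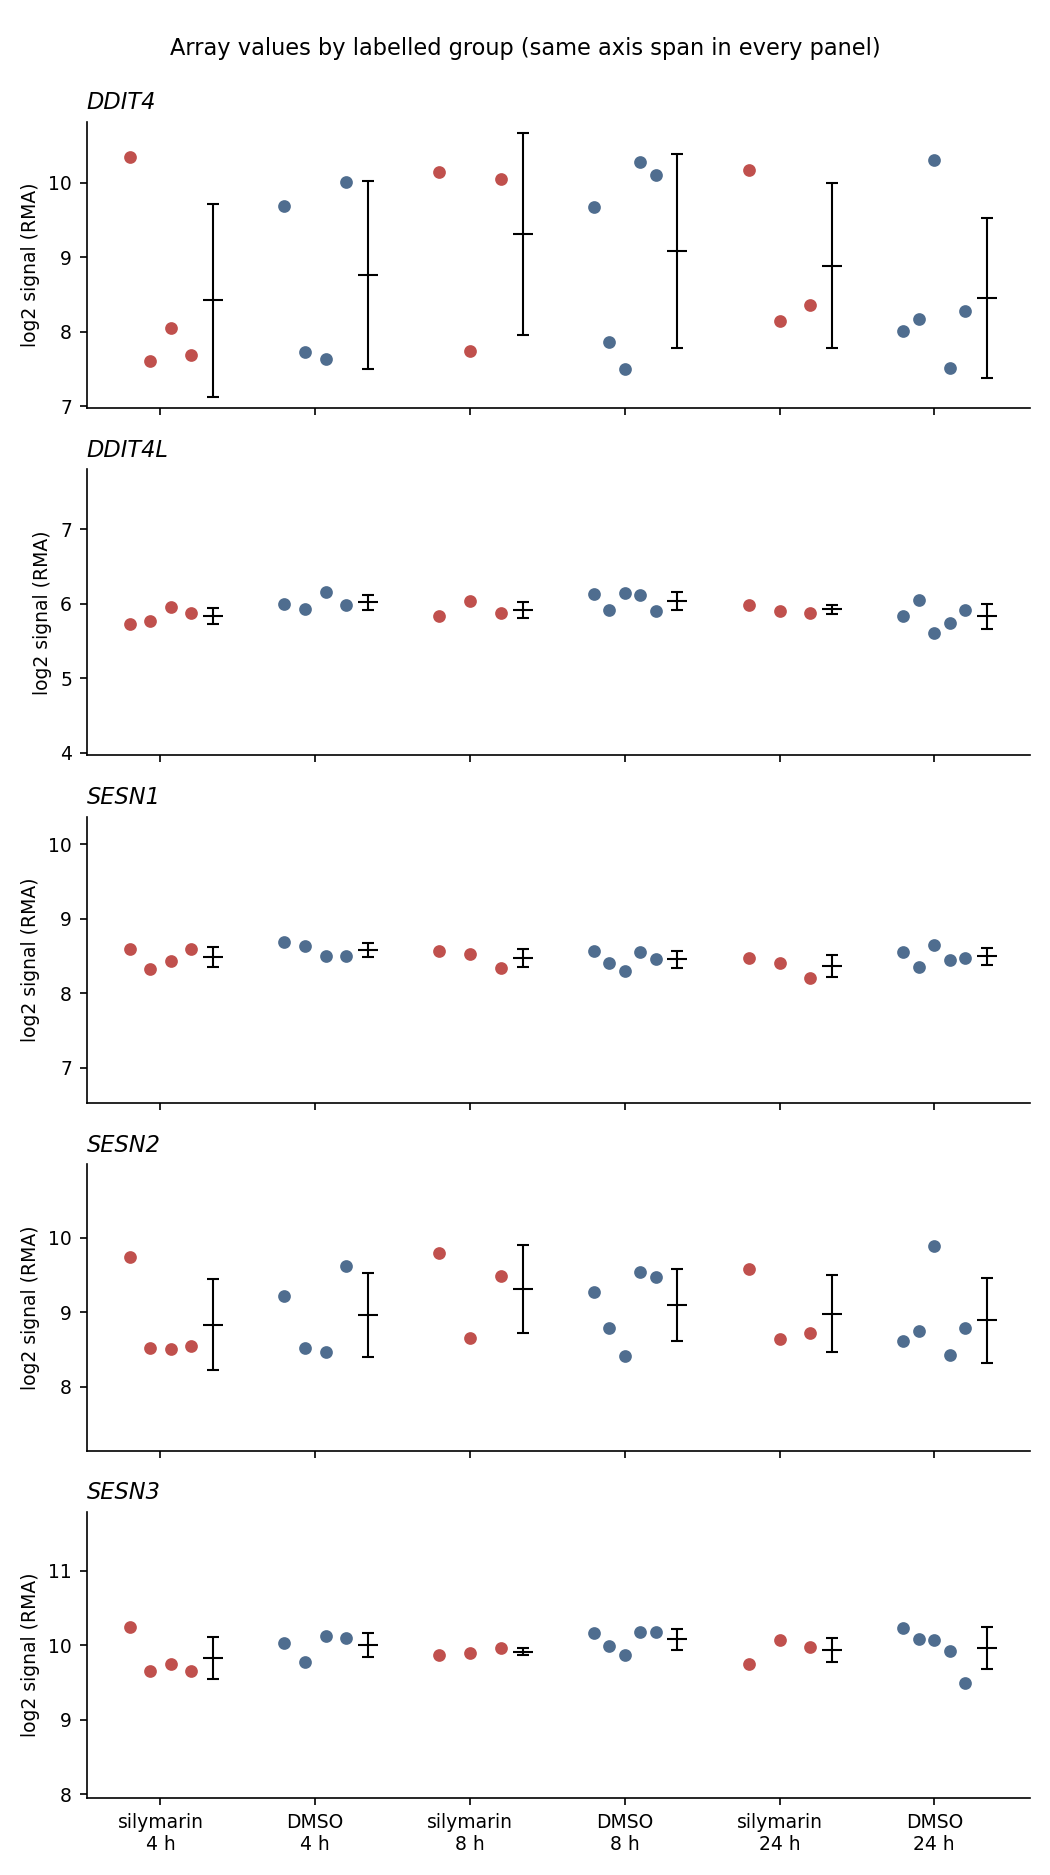
Log2 signal (vertical axis, the same span in every panel) of each gene in the 6 labelled groups. Points are arrays in replicate order, red for silymarin and blue for DMSO, and the black bar and whiskers are the group mean and SD. DDIT4 and SESN2 lie at 2 separate levels within every group, while the other genes stay within 0.75 over all arrays.

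In DDIT4 the SD of the arrays within every group was wider than any distance between group means. At 4 h it averaged 8.42 ± 1.29 in silymarin and 8.76 ± 1.26 in DMSO (SD, n = 4 each). At 8 h it averaged 9.31 ± 1.36 in silymarin (n = 3) and 9.08 ± 1.31 in DMSO (n = 5), and at 24 h 8.89 ± 1.11 in silymarin (n = 3) and 8.45 ± 1.07 in DMSO (n = 5). From high to low the order was silymarin at 8 h, DMSO at 8 h, silymarin at 24 h, DMSO at 4 h, DMSO at 24 h and silymarin at 4 h. The 5 steps between neighbours in this order were 0.03 to 0.31. None exceeded the SDs of both neighbours, and all neighbours overlapped.

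SESN2 gave the same order of group means. It averaged 8.83 ± 0.61 in silymarin and 8.96 ± 0.56 in DMSO at 4 h, 9.32 ± 0.59 in silymarin and 9.10 ± 0.48 in DMSO at 8 h, and 8.98 ± 0.52 in silymarin and 8.89 ± 0.57 in DMSO at 24 h. Its steps were 0.02 to 0.22. The order of groups thus did not exceed the spread within them for either gene.

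In the other 3 genes, too, no step between neighbours in the order exceeded the SDs of both. SESN1 means lay between 8.36 ± 0.14 in silymarin at 24 h and 8.59 ± 0.09 in DMSO at 4 h, with DMSO at 24 h, silymarin at 4 h, silymarin at 8 h and DMSO at 8 h between them from high to low. SESN3 means lay between 9.83 ± 0.28 in silymarin at 4 h and 10.08 ± 0.14 in DMSO at 8 h, with DMSO at 4 h, DMSO at 24 h, silymarin at 24 h and silymarin at 8 h between them. DDIT4L means lay between 5.83 ± 0.11 in silymarin at 4 h, 5.83 ± 0.17 in DMSO at 24 h and 6.04 ± 0.12 in DMSO at 8 h. For each gene all 5 steps stayed within the SD of at least 1 neighbour, and all neighbours overlapped. Groups farther apart in the order could differ by more. In SESN1 the lowest DMSO array at 4 h, at 8.51, lay above the highest silymarin array at 24 h, at 8.48. In DDIT4L the distance between the highest and the lowest mean exceeded the SDs of both groups, whose arrays overlapped. Differences between these extreme groups were not tested for SESN1 or DDIT4L.

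The labelled treatment was tested at each time with limma over all 18274 genes, and 0 of the 5 genes passed an adjusted p of 0.05 at any time. No gene at all passed, so the share called was 0% at 4 h, 8 h and 24 h, with 453, 719 and 553 genes at an unadjusted p under 0.05. Values of silymarin and DMSO arrays overlapped for all 5 genes at all 3 times, and the share of all genes whose groups did not overlap was 2.18% at 4 h, 2.93% at 8 h and 1.95% at 24 h.

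At 4 h DDIT4 differed by -0.34 (silymarin minus DMSO, SE 0.77), with a 95% interval from -1.94 to 1.25. SESN2 differed by -0.13 (SE 0.35), with an interval from -0.85 to 0.59. SESN1 and SESN3 differed by -0.10 (SE 0.083) and -0.18 (SE 0.13). All 5 differences at 4 h were below 0, where 47.5% of all genes lay above 0, and each had limma's adjusted p = 0.99993. The DDIT4 interval includes changes of more than 1 on the log2 scale in either direction.

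DDIT4L at 4 h came closest to a separation by label. It read 5.72, 5.77, 5.96 and 5.88 in silymarin arrays, and 6.0, 5.93, 6.16 and 5.99 in DMSO arrays. A single silymarin array, at 5.96, lay above the lowest DMSO array. The difference was -0.18 (SE 0.085, interval -0.36 to -0.01), with an unadjusted limma p of 0.0407 that did not pass after adjustment. An exact two-sided permutation test of this gene alone gave p = 0.0571, where 4 arrays against 4 allow 0.0286 at the lowest.

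At 8 h DDIT4 differed by 0.23 (SE 0.80, interval -1.42 to 1.88) and SESN2 by 0.22 (SE 0.36, interval -0.53 to 0.96). DDIT4L and SESN3 differed by -0.13 (SE 0.088) and -0.17 (SE 0.14), and SESN1 by 0.02 (SE 0.086). Limma's adjusted p lay between 0.991 and 0.994. The DDIT4 value depended on single arrays: it was 1.01 without silymarin replicate 2 and -0.19 without silymarin replicate 1. For SESN2 the same omissions gave 0.55 and -0.03. With arrays weighted by quality in limma, the values at 8 h were -0.58 for DDIT4 and -0.13 for SESN2, opposite in sign.

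At 24 h DDIT4 differed by 0.43 (SE 0.80, interval -1.21 to 2.08) and SESN2 by 0.09 (SE 0.36, interval -0.66 to 0.83). DDIT4L, SESN1 and SESN3 differed by 0.09 (SE 0.088), -0.13 (SE 0.086) and -0.03 (SE 0.14). Each had limma's adjusted p = 0.9997. DDIT4 was -0.20 without silymarin replicate 1, its only silymarin array above the empty stretch, and 0.89 without DMSO replicate 3, its only such DMSO array. At 4 h it was -0.98 without silymarin replicate 1 and 0.07 without DMSO replicate 4. Exact two-sided permutation tests of DDIT4 gave p = 0.886, 0.75 and 0.5 at 4, 8 and 24 h, and those of SESN2 gave 0.971, 0.536 and 1.

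**Figure D2:**
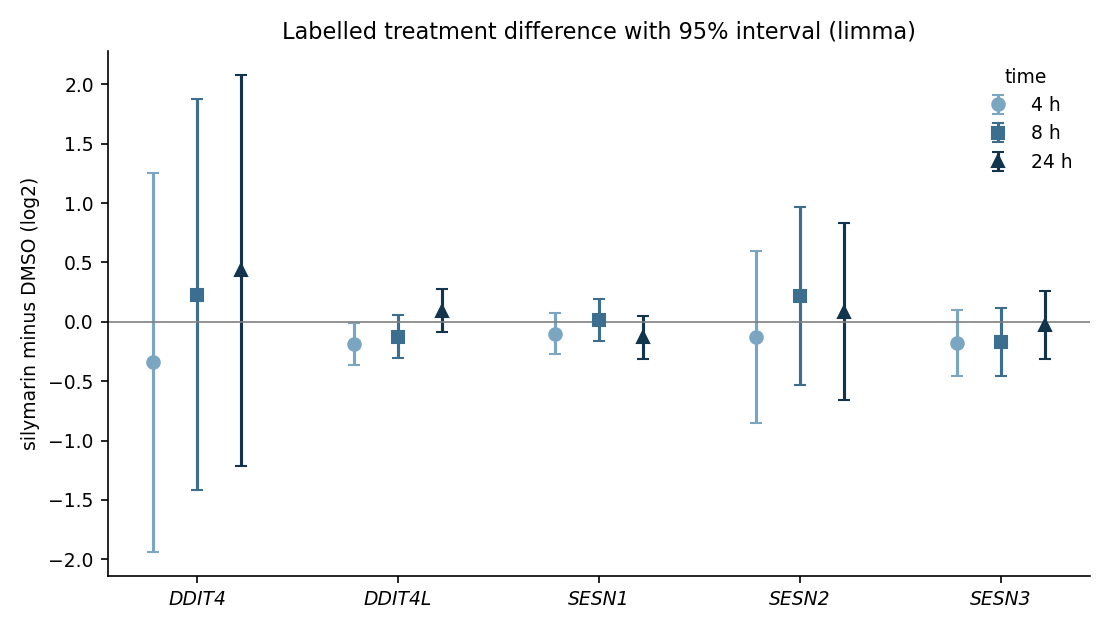
Silymarin minus DMSO on the log2 scale (vertical axis) for each gene at 4, 8 and 24 h, with 95% intervals from limma. The DDIT4 intervals run from -1.94 to 2.08 over the 3 times and all include 0; of the 15 intervals only that of DDIT4L at 4 h, from -0.36 to -0.01, leaves 0 out, before adjustment.

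The change of the silymarin difference between times was tested as an interaction, and again 0 of 5 genes passed, with 0% of all genes called in each of the 3 interactions and 433, 746 and 551 at an unadjusted p under 0.05. The difference of DDIT4 was higher at 8 h than at 4 h by 0.57 (SE 1.11), higher at 24 h than at 8 h by 0.21 (SE 1.13), and higher at 24 h than at 4 h by 0.77 (SE 1.11). These sizes rested on single arrays: with 1 array left out, the first ranged from 0.15 without silymarin replicate 1 at 8 h to 1.35 without silymarin replicate 2 at 8 h, and the last from 0.14 without silymarin replicate 1 at 24 h to 1.41 without silymarin replicate 1 at 4 h. With array weights the first was 0.0038 and the last 1.12. For SESN2 the same changes were 0.34 (SE 0.50), -0.13 (SE 0.51) and 0.21 (SE 0.50). The difference of DDIT4L was higher by 0.28 (SE 0.12) at 24 h against 4 h, the smallest unadjusted p among these genes. That limma p was 0.0321 and its adjusted p was 0.99994.

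Time in the solvent alone gave no difference past the threshold for any of the 5 genes. No gene of all tested passed at 8 h or 24 h against 4 h (0% called), with 1188 and 310 at an unadjusted p under 0.05, and 2.24% and 0.646% of genes had groups that did not overlap, none of the 5 among them. In DMSO at 8 h minus 4 h, DDIT4 differed by 0.32 (SE 0.73), SESN2 by 0.14 (SE 0.33), SESN1 by -0.13 (SE 0.079), SESN3 by 0.07 (SE 0.13) and DDIT4L by 0.02 (SE 0.081). In DMSO at 24 h minus 4 h, DDIT4 differed by -0.31 (SE 0.73), SESN2 by -0.07 (SE 0.33), SESN1 by -0.09 (SE 0.079) and SESN3 by -0.05 (SE 0.13). DDIT4L read 5.84, 6.05, 5.60, 5.74 and 5.91 in DMSO at 24 h, against 6.0, 5.93, 6.16 and 5.99 at 4 h. That difference of -0.19 (SE 0.081) had an unadjusted limma p of 0.0279 and an adjusted p of 0.9999. Both time comparisons and the 4 h treatment comparison share the DMSO arrays at 4 h.

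How far the genes followed each other was measured as the share of all 276 pairs of arrays that 2 genes put in the same order, where 50% means as many pairs alike as opposite. DDIT4 and SESN2 ordered 89.9% of pairs alike, 248 in number, and 94.7% of the 38 pairs within a labelled group. Among the other 18273 genes SESN2 tied with HERPUD1 for the second place in likeness to DDIT4, and DDIT4 was second in likeness to SESN2. The median share over all genes was 48.6%, the central 90% of genes lay between 31.2% and 71.4%, and 130 genes reached 80%. Since the arrays fell on 2 sides of the DDIT4 gap, the share was also taken on each side. It was 75.6% of 45 pairs among the 10 arrays above the gap and 81.3% of 91 pairs among the other 14. A gene that divides the arrays at the same place puts every pair across the gap in the same order as DDIT4. For the list genes and the genes most like DDIT4 the share is given over all 276 pairs only. Their shares thus do not separate this division from finer likeness on each side.

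The remaining genes followed DDIT4 less closely than SESN2 did. SESN3 shared 64.9% of pairs with it and SESN1 62.0%, both inside the central range of all genes. DDIT4L shared 44.2%, below the median gene. Of the 38 pairs within a labelled group, SESN1 shared 71.1% with DDIT4, SESN3 60.5% and DDIT4L 39.5%. Among the arrays above the DDIT4 gap the share was 26.7% of 45 pairs for DDIT4L and 55.6% each for SESN1 and SESN3. Among the other arrays it was 50.5% of 91 pairs for DDIT4L, 45.1% for SESN1 and 56.0% for SESN3. With SESN2 the shares were 62.7% for SESN1, 62.0% for SESN3 and 42.8% for DDIT4L. SESN1 and SESN3 shared 58.7%, SESN1 and DDIT4L 48.9%, and SESN3 and DDIT4L 54.0%. Of the 10 arrays highest in DDIT4, SESN1 and SESN3 each had 6 among their own 10 highest and DDIT4L had 5.

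**Figure D3:**
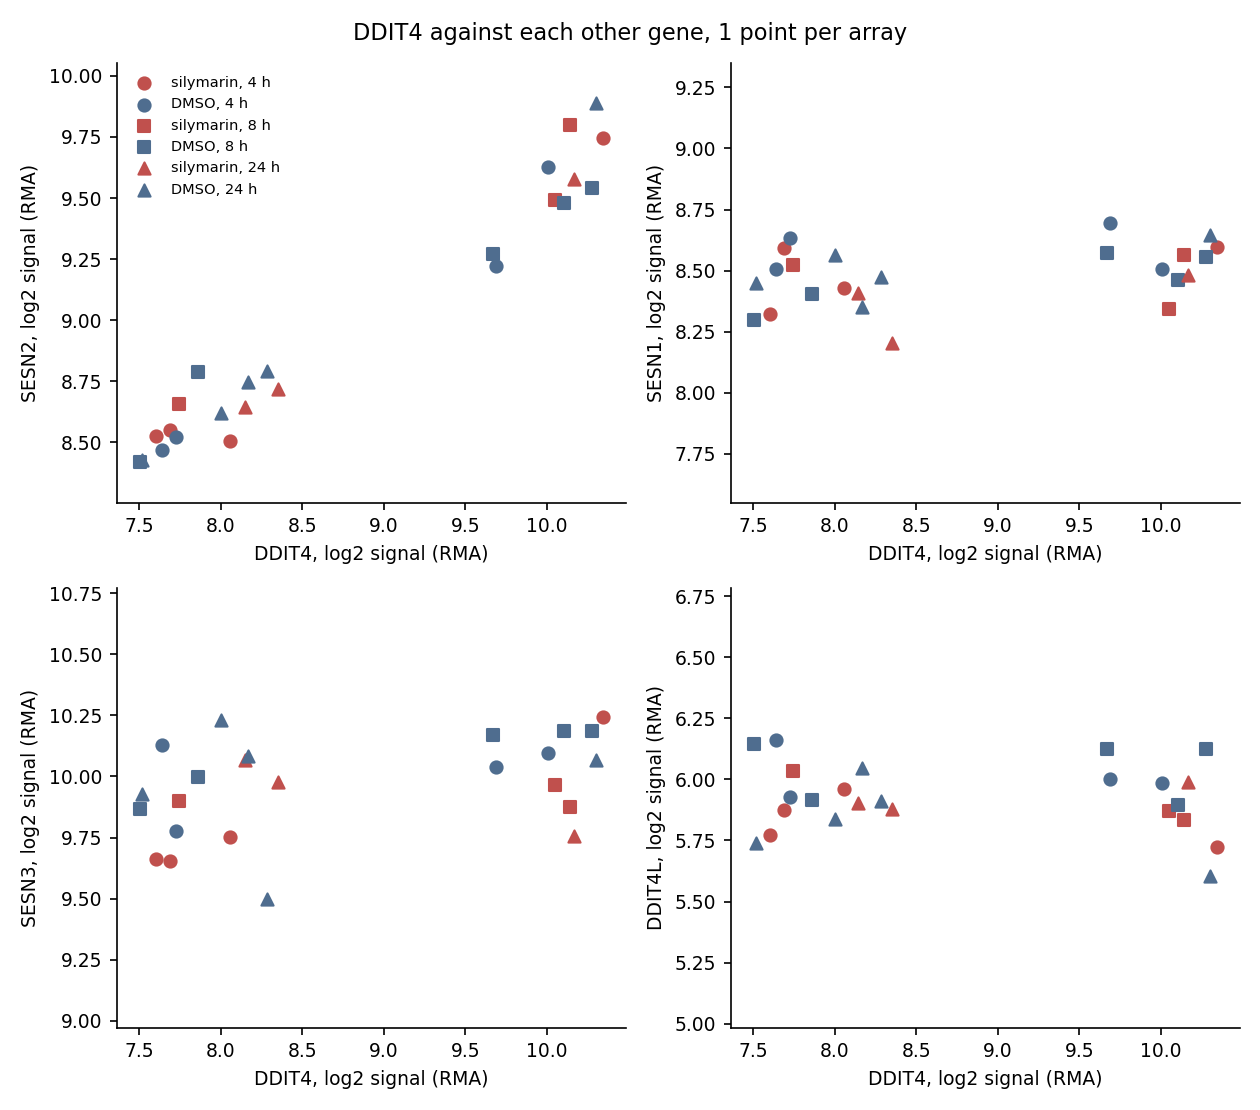
DDIT4 (horizontal axis, log2 signal) against SESN2, SESN1, SESN3 and DDIT4L (vertical axes, log2 signal, each spanning the same width), with 1 point per array, red for silymarin, blue for DMSO, and marker shape for time. Only the SESN2 panel has its 10 highest arrays on the right of the DDIT4 gap between 8.35 and 9.67; both treatments and all 3 times appear on each side.

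The genes most like DDIT4 were, with their share of array pairs, CHAC1 at 93.1%, HERPUD1 and SESN2 at 89.9%, STC2 at 88.8%, PPP1R15B at 87.7% and HSPA13 at 87.3%. CHAC1 degrades glutathione and ranged from 8.13 to 11.22 over the arrays. HERPUD1 serves degradation of proteins from the endoplasmic reticulum and ranged from 10.39 to 11.53. STC2 is a secreted stanniocalcin that ranged from 8.06 to 10.01. PPP1R15B guides a phosphatase to eIF2, and HSPA13 is a relative of the Hsp70 chaperones. At the other end ZNF207, a spindle and kinetochore protein, shared 16.7% of pairs, TXNIP, an arrestin-like regulator of glucose uptake that binds thioredoxin, 18.8%, and YWHAH, an adaptor for phosphorylated proteins, 19.2%. TXNIP ranged from 6.29 to 7.75 and put most pairs of arrays in the opposite order to DDIT4.

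HERPUD1 at 91.3%, DDIT4 at 89.9% and CHAC1 at 88.8% were the genes most like SESN2. SESN1 was most like CLK1, a splicing kinase, at 83.3%, MCCC1, an enzyme of leucine breakdown, at 83.0%, and the zinc finger gene ZNF136 at 82.2%. SESN3 was most like CCNG2, the gene of cyclin G2 and a FOXO target, at 86.2%, PODXL, a surface sialomucin, at 82.6%, and the noncoding RNA LINC00324 at 81.5%. DDIT4L was most like the homeobox gene SHOX2 at 79.7%, the small nucleolar RNA gene SNORA52 at 79.0% and SYNPO2L, a gene of the muscle cytoskeleton, at 78.6%. No gene reached 80% with DDIT4L.

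The pathway on which these proteins act was described through 16 lists, with 136 of 145 entries measured and 0 genes of any list past the adjusted threshold at any time, as for all genes (0%). TBC1D7, CASTOR2, LAMTOR1 and EIF4EBP3 of the mTORC1 lists and PIK3CA of the insulin list were not analysed here. The lists are described and were not tested as sets. Shares of array pairs with DDIT4 are given beside the median gene at 48.6%, and treatment differences beside all genes, whose median was -0.01, -0.02 and 0.01 at 4, 8 and 24 h.

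The genes of the TSC complex, through which DDIT4 acts, and of its target RHEB followed DDIT4 unequally. TSC2, the GTPase-activating subunit of the TSC complex, shared 76.4% of pairs and ranged from 9.42 to 9.82. TSC1, its stabilising partner, shared 69.2%. RHEB, the GTPase they switch off, shared 33.0% and stayed between 10.95 and 11.20. By label the median difference of the 3 genes was 0.02, -0.07 and -0.02 at 4, 8 and 24 h. TSC2 averaged 9.57 ± 0.16 in silymarin and 9.62 ± 0.07 in DMSO at 4 h (SD, n = 4 each).

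The sestrin branch gave intermediate shares. The GATOR1 subunits DEPDC5, NPRL2 and NPRL3 shared 72.8%, 72.1% and 69.6% of pairs with DDIT4, and the GATOR2 subunits ranged from SEH1L at 31.2% and MIOS at 42.8% to WDR59 at 64.1%. Among the Rag, Ragulator and folliculin genes the median was 65.2%. FLCN, folliculin, a GTPase-activating protein for the Rag GTPases, shared 81.5% and ranged from 9.06 to 9.66. LAMTOR2 shared 78.6%, and RRAGC and FNIP1, the partner of folliculin, shared 76.1% each. RRAGC spanned 9.59 to 10.76 and so varied more than the other Rag genes. The other amino acid sensors CASTOR1, SAMTOR and SLC38A9 shared 59.4%, 62.0% and 32.6%.

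By label, 5, 5 and 7 of 8 GATOR genes and 8, 3 and 7 of 11 Rag, Ragulator and folliculin genes lay above 0 at 4, 8 and 24 h. Of all genes 47.5%, 42.0% and 56.0% did. With single arrays left out the GATOR counts ranged from 3 to 6, 3 to 6 and 5 to 7. The Rag, Ragulator and folliculin counts then ranged from 5 to 9, 0 to 4 and 4 to 8. CASTOR1, an arginine sensor, averaged 7.74 ± 0.10 in silymarin (n = 3) and 7.54 ± 0.02 in DMSO (n = 5) at 8 h, a difference of 0.20 (SE 0.08). LAMTOR3, a scaffold of Ragulator, differed by -0.22 (SE 0.10) at 8 h. SAMTOR, which senses S-adenosylmethionine, differed by -0.19 (SE 0.08) at 24 h. None of these passed, with limma's adjusted p = 0.991 at 8 h and 0.9997 at 24 h.

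Subunits and substrates of mTORC1 had medians of 58.7% and 56.2%. MTOR, the kinase, shared 68.8% of pairs with DDIT4 and ranged from 10.19 to 10.55, while RPTOR, which recruits substrates, shared 41.3%. EIF4EBP1, a translation repressor that mTORC1 inactivates and a known ATF4 target, shared 72.5% and ranged from 9.39 to 10.78. ULK1, the autophagy kinase, shared 71.7%. EIF4EBP1 averaged 10.15 ± 0.33 in silymarin (n = 3) and 9.79 ± 0.11 in DMSO (n = 5) at 24 h, a difference of 0.36 (SE 0.22) that did not pass, and at 4 h it differed by -0.26 (SE 0.21).

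The energy and insulin branches gave lower shares. The median of the 8 AMPK and LKB1 genes was 42.2%, below the median gene, with the subunit PRKAG1 apart at 76.4%. The 7 insulin receptor to AKT genes had a median of 48.6%, between IRS1 at 34.1% and IRS2 at 66.3%. PRKAA2, a catalytic AMPK subunit, differed by 0.14 (SE 0.10) at 4 h and -0.19 (SE 0.10) at 8 h, and PIK3R1, a regulatory subunit of the insulin-signalling lipid kinase, by -0.17 (SE 0.08) at 8 h. None passed.

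Genes upstream of the 5 were then set beside DDIT4. Of 9 measured transcription factors known to induce one of them, CEBPB shared 87.0%, DDIT3 84.4% and ATF4 82.2% of pairs. NUPR1, a stress-induced chromatin protein, shared 77.9%, and FOXO3 66.7%. DDIT3, the CHOP factor of endoplasmic reticulum stress, ranged from 8.95 to 10.74, and ATF4, the effector of eIF2 phosphorylation, from 11.24 to 12.09. NFE2L2, the gene of NRF2, shared 45.7%, FOXO1 46.0%, the glucocorticoid receptor gene NR3C1 35.1% and HIF1A 33.0%. CA9, FKBP5, PRDX5 and HNF4A of the lists that follow or of the markers were not analysed here.

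Of the target lists of these factors, that of ATF4 had the highest median share. It was 80.1% over 20 genes, and 10 of them reached 80%, as did 0.711% of all genes. The list was chosen with earlier results of these data known, and CHAC1 and STC2 belong to it. These shares are thus a description and no test of the list. SLC7A11, the cystine transporter, shared 87.0% and ranged from 8.93 to 11.16, and SLC7A1, a transporter of cationic amino acids, shared 85.1%. TRIB3, a pseudokinase that restrains AKT, and CTH, an enzyme of cysteine synthesis, shared 81.5% each. ASNS, asparagine synthetase, shared 78.6% and ranged from 9.33 to 11.26. ATF5 was the exception at 46.0%. DDIT4 and SESN2 are themselves ATF4 targets and were left out of this list.

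The other target lists had medians closer to that of all genes. The 13 measured HIF targets had a median of 51.1%, from EGLN3 at 26.4% to VEGFA at 78.6%, with LDHA at 29.0%. The 5 glucocorticoid receptor targets had a median of 45.7%, with TSC22D3 alone above 80% at 81.9%. The 8 FOXO targets had a median of 58.5%, led by BCL6 at 82.6%. The 10 redox genes tied to sestrins had a median of 46.0%, with the peroxiredoxins PRDX1, PRDX2, PRDX3, PRDX4 and PRDX6 between 30.4% and 49.3% and higher shares for SRXN1, which repairs peroxiredoxins, at 78.3%, the thioredoxin reductase gene TXNRD1 at 77.5% and SQSTM1, the gene of the autophagy receptor p62, at 71.0%.

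**Figure D4:**
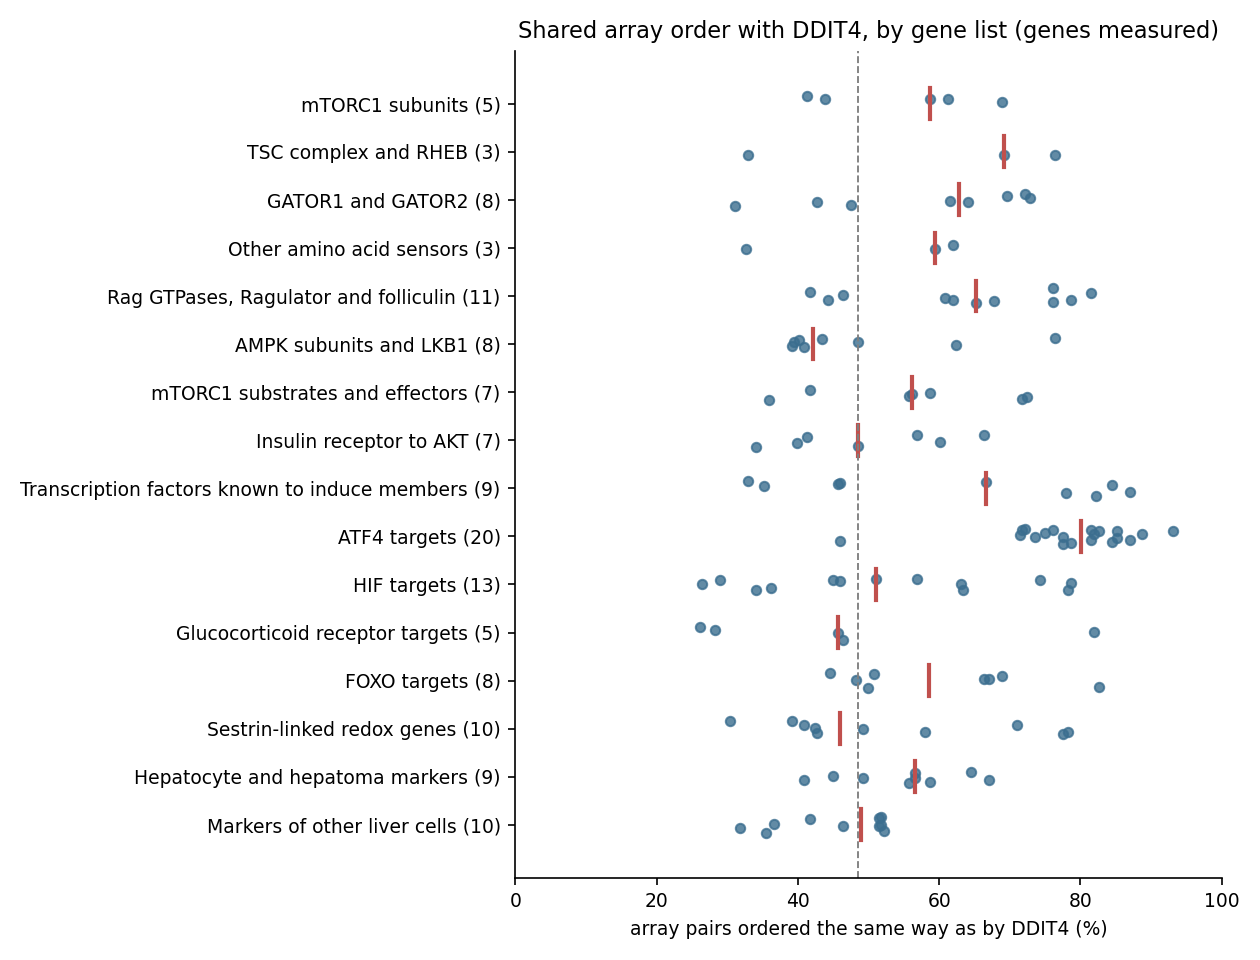
Share of 276 array pairs ordered the same way as by DDIT4 (horizontal axis, percent) for each measured gene of 16 lists. Points are genes, red bars list medians, the number measured stands in brackets, and the dashed line is the median over all genes at 48.6%. The ATF4 targets have the highest median, 80.1%, and the AMPK list the lowest, 42.2%.

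By label, 6, 10 and 19 of 20 ATF4 targets lay above 0 at 4, 8 and 24 h, with medians of -0.05, 0.00059 and 0.34. At 24 h 56.0% of all genes lay above 0. None of the 20 passed at 24 h. SLC7A5, a leucine transporter, averaged 11.82 ± 0.19 in silymarin (n = 3) and 11.48 ± 0.24 in DMSO (n = 5) at 24 h, a difference of 0.34 (SE 0.16), and TRIB3 and SLC7A1 differed by 0.51 (SE 0.28) and 0.52 (SE 0.30). The list rested on the array that was also the highest of its group in DDIT4: without silymarin replicate 1 at 24 h, 14 of 20 lay above 0 and the median was 0.08. The counts at 4 h lay between 0 and 15 of 20, and those at 8 h between 3 and 16, when single arrays were left out.

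The other upstream genes given here are among those with the smallest p of their list, and none passed. NR3C1 differed by 0.25 (SE 0.12) at 4 h and -0.28 (SE 0.12) at 8 h, and FOXO1 by 0.14 (SE 0.07) at 24 h. CEBPB differed by 0.17 (SE 0.20) at 24 h, and TSC22D3, the glucocorticoid-induced leucine zipper gene, by 0.29 (SE 0.14). Of the FOXO targets, CCNG2, the gene most like SESN3, differed by -0.34 (SE 0.15) and SOD2, mitochondrial superoxide dismutase, by 0.35 (SE 0.15) at 8 h. Of 10 sestrin-linked redox genes 3, 10 and 5 lay above 0 at 4, 8 and 24 h, with medians of -0.02, 0.07 and 0.0078, against 47.5%, 42.0% and 56.0% of all genes. With single arrays left out the counts ranged from 3 to 6 at 4 h, 7 to 10 at 8 h and 2 to 7 at 24 h. PRDX6 had the smallest p of them at 8 h, with a difference of 0.12 (SE 0.06), and did not pass.

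Array-wide measures followed DDIT4 little. The median of an array shared 44.2% of pairs with DDIT4, the interquartile range of an array 50%, and the mean of the hepatocyte markers, which stayed between 12.34 and 12.46, 58.0%. The mean of the 10 markers of other liver cells, from 6.39 to 6.84, shared 37.7% with DDIT4. By label those 10 markers had medians of -0.03, -0.08 and 0.04 at 4, 8 and 24 h. Of them 2, 0 and 7 lay above 0, against 47.5%, 42.0% and 56.0% of all genes. With single arrays left out the counts ranged from 1 to 4, 0 to 3 and 4 to 9. The median at 24 h then ranged from -0.04 to 0.12. The part of these markers in the levels of the 5 genes was not tested.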

How the data were processed

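The authors deposited 1 table of log2 expression values. Per the submitters' processing notes, RMA and oligo made them, with no version given, and the genome build is not given in the sources used here. RMA subtracts background, makes the arrays' distributions equal and summarises probes. The values were used as deposited. Of 28869 probe sets, 19302 carry a single symbol in the platform annotation, 1729 several and 7838 none listed, and the probe set of highest mean was kept for each of 18274 genes.

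Group means of the 6 labelled groups were fitted to all arrays with limma 3.58.1 in R 4.3.3 (18 residual and 5.04 prior degrees of freedom). Tests were two-sided, with Benjamini-Hochberg adjustment over all genes and a threshold of 0.05. The code was tested on simulated data. No 2 arrays held identical values, and 0 columns of values lacked a label. The genes and the 16 lists were chosen with earlier results of these data known, and some genes of the pathway and their targets are not reported here. Named genes are the 5, from each list the 3 lowest in p at each time, those most like each of the 5 in array order, and those least like DDIT4. Other list genes named for their share were picked after their values were seen. Figures used matplotlib 3.10.9 in Python 3.11.15. Alternatives covered scaling, dim genes, probe sets, variance model, array weights, replicate block and omission of each array.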

Additional observations from a re-analysis of the deposited data

Results flagged for a closer look

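A gene and a group of 4 or 5 arrays were examined in 52 combinations. In 6 of them a lone array lay farther from the others than Dixon's test allows at the 95% level. Chance gives such a gap in about 5% of groups, but that share is no yardstick for this count. DDIT4 had been seen to vary widely beforehand, and TXNIP was named for its array order relative to DDIT4. Several flags also fall on the same array. In silymarin at 4 h, replicate 1 stood above the other arrays in DDIT4, at 10.34, in SESN2, at 9.75, and in SESN3, at 10.24. In DMSO at 24 h, replicate 3 stood above the other arrays in DDIT4, at 10.30, and in SESN2, at 9.89, and below them in TXNIP, at 6.49. Both arrays belong to the 10 with the highest DDIT4. Groups of 3 arrays, silymarin at 8 h and at 24 h, were not tested.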

How the results depend on the processing

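No alternative put any of the 5 genes past the threshold, and their lowest adjusted p under any was 0.574. Repeated quantile normalization called 1 gene at 24 h, none of the 5, and the other alternatives called 0 in all 8 comparisons. Array weights gave DDIT4 -0.58 and SESN2 -0.13 at 8 h, SESN3 0.039 at 24 h, SESN2 0.28 from 8 h to 24 h and SESN1 0.016 from 4 h to 24 h, each opposite in sign to the reported value. The other reversals were DDIT4L in DMSO at 8 h against 4 h, at -0.014 with arrays re-centred, -0.030 with quantile normalization and -0.047 with cyclic loess, and SESN3 from 4 h to 8 h, at -0.00019 re-centred and -0.041 with the replicate block. The cause was not tested. With the replicate block DDIT4 differed by -0.34, 0.42 and 0.62 at 4, 8 and 24 h, and it changed no call. The labels do not say what a replicate number shares. Deviations of same-numbered arrays from their group means correlated above 0.1 in 4 of 10 pairs (-0.14 to 0.43), including all 3 pairs of replicate 2. Replicate 2 lay above the DDIT4 gap in 0 of 6 groups, so a shared number and a shared DDIT4 level cannot be told apart there. Of 20 arrays, 8 correlated best with their own number, and the count expected without pairing was not worked out. Within labelled groups DDIT4 and SESN2 ordered 94.7% of array pairs alike.

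Leaving out 1 array turned the sign of 53 of 450 values. Silymarin minus DMSO then ranged for DDIT4 from -0.98 to 0.073, -0.19 to 1.01 and -0.20 to 0.89 at 4, 8 and 24 h, and for SESN2 from -0.43 to 0.095, -0.025 to 0.55 and -0.21 to 0.33. SESN1 ranged from -0.027 to 0.085 at 8 h and SESN3 from -0.14 to 0.062 at 24 h. From 4 h to 8 h the change ranged from -0.0016 to 0.10 for DDIT4L and -0.045 to 0.15 for SESN3. For DDIT4 it ranged from 0.15 to 1.35 from 4 h to 8 h (0.0038 with array weights) and from 0.14 to 1.41 from 4 h to 24 h (1.12 with array weights). From 8 h to 24 h it ranged from -0.58 to 0.67 for DDIT4 and -0.46 to 0.12 for SESN2, and from 4 h to 24 h from -0.088 to 0.051 for SESN1 and -0.085 to 0.52 for SESN2. In DMSO, 8 h minus 4 h ranged from -0.055 to 0.73 for DDIT4, -0.0095 to 0.069 for DDIT4L, -0.025 to 0.36 for SESN2 and -0.0053 to 0.13 for SESN3. In DMSO, 24 h minus 4 h ranged from -0.77 to 0.10 for DDIT4, -0.31 to 0.16 for SESN2 and -0.12 to 0.069 for SESN3. The omission of single arrays from the list counts was chosen after seeing the data. Levels limit DDIT4L most: its mean lay under 6.27, and it was left out with the dim genes.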
